A study of Mus musculus with 22 samples.

Results

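The 40 genes described here are those with which a cell receives an interferon signal, relays it and answers it. They were taken by name from a list of such genes, with no threshold on a measured value, though with earlier results of these data known, and all 40 were found among the 24421 genes counted in 22 RNA-seq libraries of epithelial cells sorted from the mouse colon. By role they are 6 receptor chains, 8 transcription factors, 5 sensors of viral nucleic acid or their cofactors, 5 genes of ISG15 conjugation and ADP-ribosylation, 13 other antiviral effectors and 3 guanylate-binding proteins. All mice were untreated wild type males of the C57BL/6N strain, 5 to 7 weeks old, so that no group was infected or given interferon, and the question put to these genes is how their levels in the resting colon differ between cell types.

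The cells were live, Epcam positive and negative for Cd31 and Cd45, a gate against endothelial and blood-derived cells. RNA of markers of such cells was still counted and is given below. The gated cells were separated into 6 populations by Cd44, Cd24 and Ckit. Stem cells (Stem, n = 3 libraries) had the highest Cd44 with low Cd24 and no Ckit, and absorptive progenitors (AbsPro, n = 3) had medium to high Cd44 with low Cd24 and no Ckit. The SecPDG population (n = 4), which holds secretory progenitors, deep crypt secretory cells and possibly some goblet cells, had by the labels high Cd44 with medium Cd24 and Ckit, although the study's text gives its Cd44 as medium. Tuft cells (Tuft, n = 5) were Ckit positive with high Cd24, enterocytes (Ent, n = 5) had little or no Cd44 and no Cd24, and enteroendocrine cells (EEC, n = 2) had little or no Cd44 but were positive for Cd24. A library was made from 1 ng of RNA of at least 2500 cells, and by the study's methods libraries come from independent mice and sorts. Each Stem and each AbsPro library came from 1 mouse, while every SecPDG, Tuft, Ent and EEC library came from several mice pooled. In comparisons of these pooled populations with Stem or AbsPro, pooling and population cannot be told apart. In RNA of many cells, fewer cells that express a gene and less of its RNA per cell cannot be told apart either.

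Interferons are secreted proteins that warn cells of infection. Type I interferons act through a receptor of Ifnar1 and Ifnar2, interferon gamma through Ifngr1 and Ifngr2, and the type III interferons, to which mainly epithelial cells respond, through Ifnlr1 and the shared chain Il10rb. The type I and type III receptors lead to a complex that holds Stat2 and Irf9, binds interferon-stimulated response elements and switches on antiviral genes, while the gamma receptor acts mainly through gamma-activated sites. Many of these genes are transcribed at a low level without infection, and Irf7 and Usp18 are themselves induced, the first to amplify the response and the second to restrain it.

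Reads counted on genes numbered 15314543 to 22462518 per library in Stem, AbsPro and SecPDG, 9930648 to 20892532 in Tuft, 5950619 to 12966128 in Ent, and 4122122 and 13132315 in EEC. Summed markers were highest in the matching population for Stem (Lgr5, Smoc2, Axin2, Ascl2), Tuft (Dclk1, Trpm5, Pou2f3, Gfi1b), EEC (Chga, Chgb, Tph1, Neurod1) and SecPDG (Muc2, Fcgbp, Spdef, Reg4), although the goblet list was also high in Tuft. Enterocyte markers (Car1, Car4, Slc26a3, Aqp8) summed to more in AbsPro, at 58527 to 89125 normalized counts, than in Ent, at 35635 to 55413, and they differed between the EEC libraries, at 4044 in one and 87982 in the other. Background was read from 1507 genes for olfactory, vomeronasal and trace amine receptors and keratin-associated proteins, which act in other tissues. Their share was 12.2 to 157 CPM in Stem, AbsPro and SecPDG, 179 to 1473 in Tuft, 777 to 3908 in Ent, and 7096 in EEC 1 against 622 in EEC 2. The share of a library's total on lines that name no gene moved with the populations as well, at 53.9% to 58.6% in Stem, AbsPro and SecPDG, 54.1% to 74.0% in Tuft, 72.7% to 86.0% in Ent and 70.7% to 91.6% in EEC, and its part in the results was not tested. Below, a level is given as a normalized count, which is a count divided by the library's total and its TMM factor on the scale of the mean library, a library is named by its population and number, and SE is the standard error of a log2 fold change.

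Relative to Stem, more of the interferon genes were called higher than lower in each population but EEC, and the number called higher ran from 3 in AbsPro to 16 in Ent, where the share called among all genes was also larger. At an unadjusted p under 0.05 in the test named next, 17 were higher and 0 lower in AbsPro and 18 and 2 in SecPDG. The counts were 19 and 4 in Tuft, 20 and 3 in Ent and 10 and 12 in EEC. No share of all genes at that threshold is at hand, so these counts do not show an equal difference in each population. A gene was called when edgeR's quasi-likelihood F test over 22781 genes gave a Benjamini-Hochberg adjusted p under 0.01 and the gene averaged 50 normalized counts or more across the 22 libraries, which all 40 genes did. In AbsPro 3 of 40 were called higher, against 0.496% of all genes tested, and 0 lower, against 0.0922% of all genes. In SecPDG 5 were called higher and 0 lower, beside 3.38% and 1.6% of all genes. In Tuft the counts were 9 higher and 2 lower, beside 7.83% and 4.23%. The largest number was in Ent, with 16 called higher and 2 lower, where 10.7% and 11.5% of all genes were called in these directions. In EEC 3 were called higher and 5 lower, beside 10.8% and 9.14%. The shares of genes called, here and below, are of all 22781 genes tested. Only 13188 of those averaged 50 normalized counts or more and could be called, so the shares are low beside 40 genes that all could be. Among the 13188, 113 were called higher and 21 lower in AbsPro, 770 and 364 in SecPDG, and 1784 and 964 in Tuft. In Ent 2446 were called higher and 2614 lower, and in EEC 2459 and 2082. The 5 comparisons share the same 3 Stem libraries, so that they are not independent of each other. The split depends in part on scaling, since with plain library totals it was 6 higher and 2 lower in SecPDG and 7 and 3 in Tuft. In Ent the 3 other scalings tried in edgeR (DESeq2's size factors, library totals and upper quartile factors) gave 23 to 25 higher and 1 lower. They moved the median log2 fold change of all genes with a mean of at least 50 there by 0.54 to 0.65. Shares of all genes called with the other scalings are not given, here or below, so these counts have no background beside them.

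The median log2 fold change of the 40 genes was 0.62 in AbsPro, 0.62 in SecPDG, 0.75 in Tuft, 0.80 in Ent and -0.25 in EEC. Over all genes with a mean of at least 50 these medians were 0.04, -0.06, -0.09, -0.30 and -0.30. In AbsPro, where few genes of any kind were called, every AbsPro library stood above every Stem library for 23 of the 40 genes, and for 14.2% of the 13188 genes with a mean of at least 50. In Ent the same held for 19 of the 40 genes, beside 21.4%. Of the 40 genes 25 were called in at least 1 of the comparisons, and the other 15 (Ifnar2, Ifngr2, Il10rb, Irf1, Irf2, Irf5, Irf9, Dhx58, Trim25, Parp14, Oas1a, Bst2, Isg20, Ifi35 and Xaf1) in none. By group means, 18 of the genes were highest in Ent, 8 in AbsPro, 4 each in Stem, Tuft and EEC, and 2 in SecPDG. The lowest mean was that of EEC for 20 genes and that of Stem for 14.

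**Figure D1:**
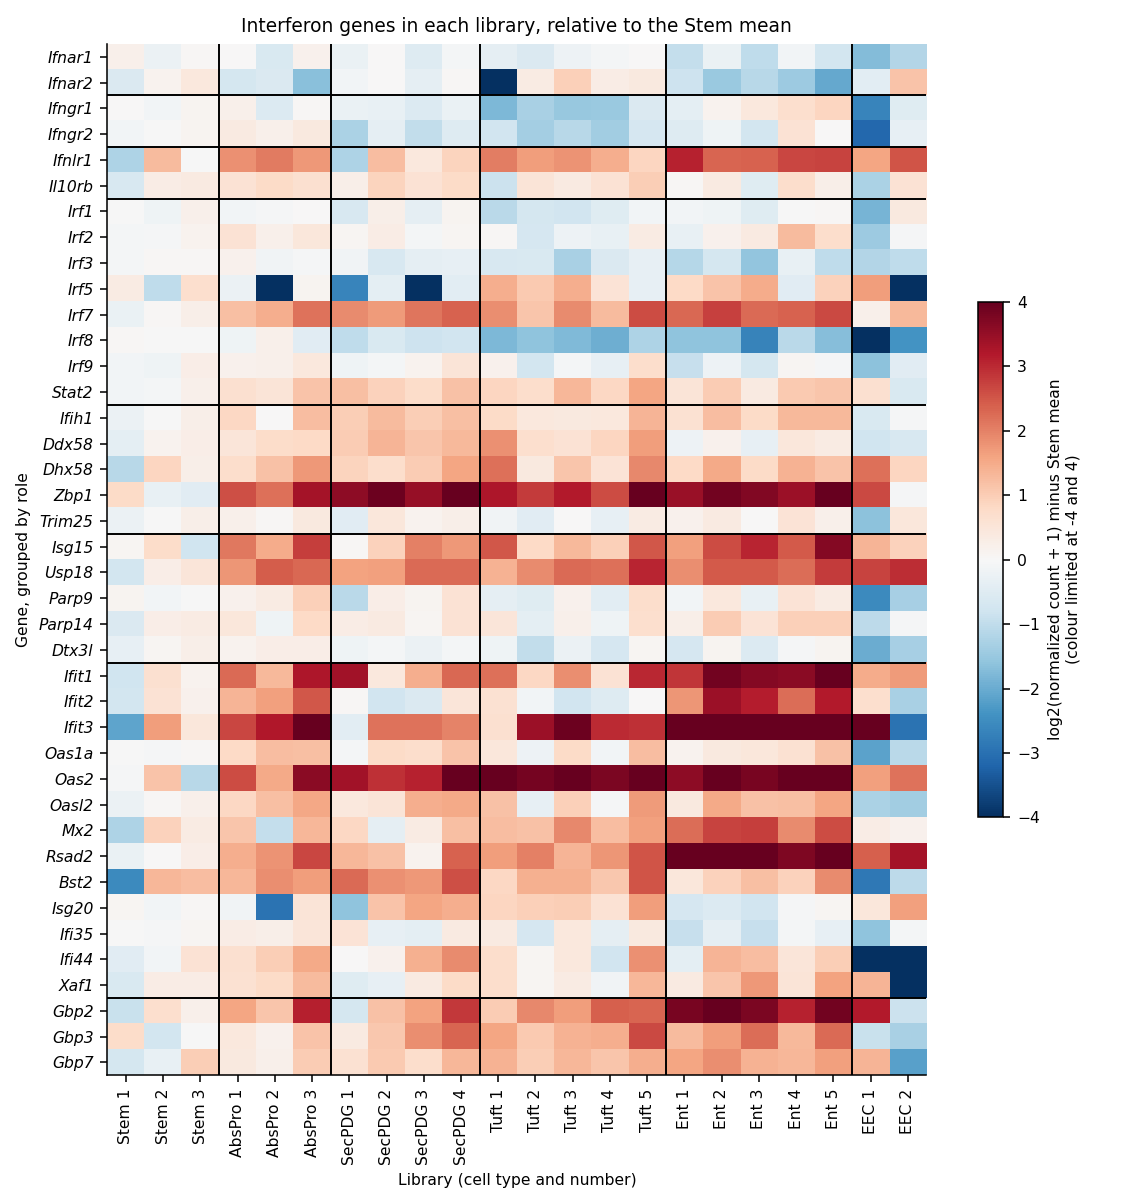
Level of the 40 interferon genes (rows, grouped by role) in the 22 libraries (columns), as log2 of the normalized count plus 1 minus the Stem mean, with the color limited at -4 and 4. Zbp1, Usp18, Ifit1, Oas2 and Rsad2 are above the Stem mean in nearly every library outside Stem, while Irf8 is below it in Tuft, Ent and EEC.

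Of the 6 receptor chains 1 was called higher in some populations, 2 were called lower and 3 were called in none. The 1 that was higher was Ifnlr1, the chain specific to type III interferons. Its normalized counts were 24.5, 141 and 57.9 in Stem, 212, 251 and 199 in AbsPro, 24.6, 140.5, 78.3 and 109 in SecPDG, 245, 189, 206, 161 and 107 in Tuft, 502, 299, 306, 378 and 386 in Ent and 179 and 341 in EEC. All 5 Ent libraries lay above all Stem, AbsPro, SecPDG and Tuft libraries, and the SecPDG values lay within the range of Stem. The increase over Stem was 4.82-fold in Ent (log2 fold change 2.27 ± 0.42 SE, adjusted p = 2.43e-05) and 3.50-fold in EEC (log2 fold change 1.81 ± 0.54 SE, adjusted p = 0.00543), the latter lost without Stem 1, Stem 3 or EEC 2, with an adjusted p of 0.173 without EEC 2. Without Stem 2 the log2 fold change of Ifnlr1 was 3.00 in Ent and 2.57 in EEC. In AbsPro (log2 fold change 1.52 ± 0.47 SE, adjusted p = 0.0992), Tuft (log2 fold change 1.21 ± 0.45 SE, adjusted p = 0.0352) and SecPDG (log2 fold change 0.15 ± 0.52 SE, adjusted p = 0.946) it was not called. Il10rb, the partner of Ifnlr1 that also serves the interleukin 10 receptor, ranged by group means from 529 in EEC to 881 in AbsPro and was called nowhere, with log2 fold changes relative to Stem of -0.08 to 0.60.

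Ifngr1, the ligand-binding chain for interferon gamma, was lower in Tuft. It was the most abundant of the 40 genes per length, at a mean of 779 normalized counts per kilobase of exon, ahead of Trim25 at 464 and Ifngr2 at 438. Normalized counts of Ifngr1 were 754, 1079, 911, 948 and 1753 in Tuft, below all of 2644, 2428 and 2844 in Stem, 3004, 1792 and 2701 in AbsPro and 2179, 2161, 1803 and 2187 in SecPDG. Ent held 2018, 2881, 3500.4, 4181 and 4747, and EEC 423 and 1876. Tuft was below Stem 2.40-fold (log2 fold change -1.26 ± 0.33 SE, adjusted p = 0.00301) and below Ent 3.16-fold (log2 fold change -1.66 ± 0.30 SE, adjusted p = 2.38e-05), and the comparison of Tuft with Stem lost its call without Stem 1, Tuft 1 or Tuft 3, with an adjusted p of at most 0.0121. Ifngr2, the signaling chain of the same receptor, had means of 2110.1 ± 180.4 in Stem (SD, n = 3), 2624 ± 175 in AbsPro (n = 3) and 1033 ± 237 in Tuft (n = 5). In Tuft all Ifngr2 libraries lay below those of Stem, but the gene was not called (log2 fold change -1.02 ± 0.33 SE, adjusted p = 0.0157), nor was it in SecPDG (log2 fold change -0.74 ± 0.35 SE, adjusted p = 0.238).

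Of the type I receptor, Ifnar1 had its highest mean in Stem, at 807 ± 122 (SD, n = 3), and the means stepped down through AbsPro (746), SecPDG (696), Tuft (681) and Ent (539) to EEC (297). Each pair of neighbors in that order overlapped except Ent and EEC. Ifnar1 was called only in EEC, where the libraries held 240.4 and 353 (log2 fold change -1.41 ± 0.42 SE, adjusted p = 0.00449). That call was lost without Stem 1, with DESeq2's Wald test, with DESeq2's size factors in edgeR and with EEC and Stem fitted alone. For Ifnar2 the Ent libraries held 95.1, 59.7, 77.4, 61.6 and 40.2, all below the Stem values of 113, 186 and 228, without a call (log2 fold change -1.41 ± 0.50 SE, adjusted p = 0.0139), and background reads were estimated at 22.9% of the Ent mean. Tuft 1 stood apart at 7.32 Ifnar2 counts, where the other Tuft libraries held 209 to 326. Ifnar2, Il10rb, Ifnar1 and Ifngr2 lie in this order within chr16:91372783-91565623 (mm10), and a read-through model, Gm21970, holds 6.31% of the 100-base words of Ifnar2 and 12.1% of those of Il10rb, so that some of their reads can be assigned to neither gene.

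**Figure D2:**
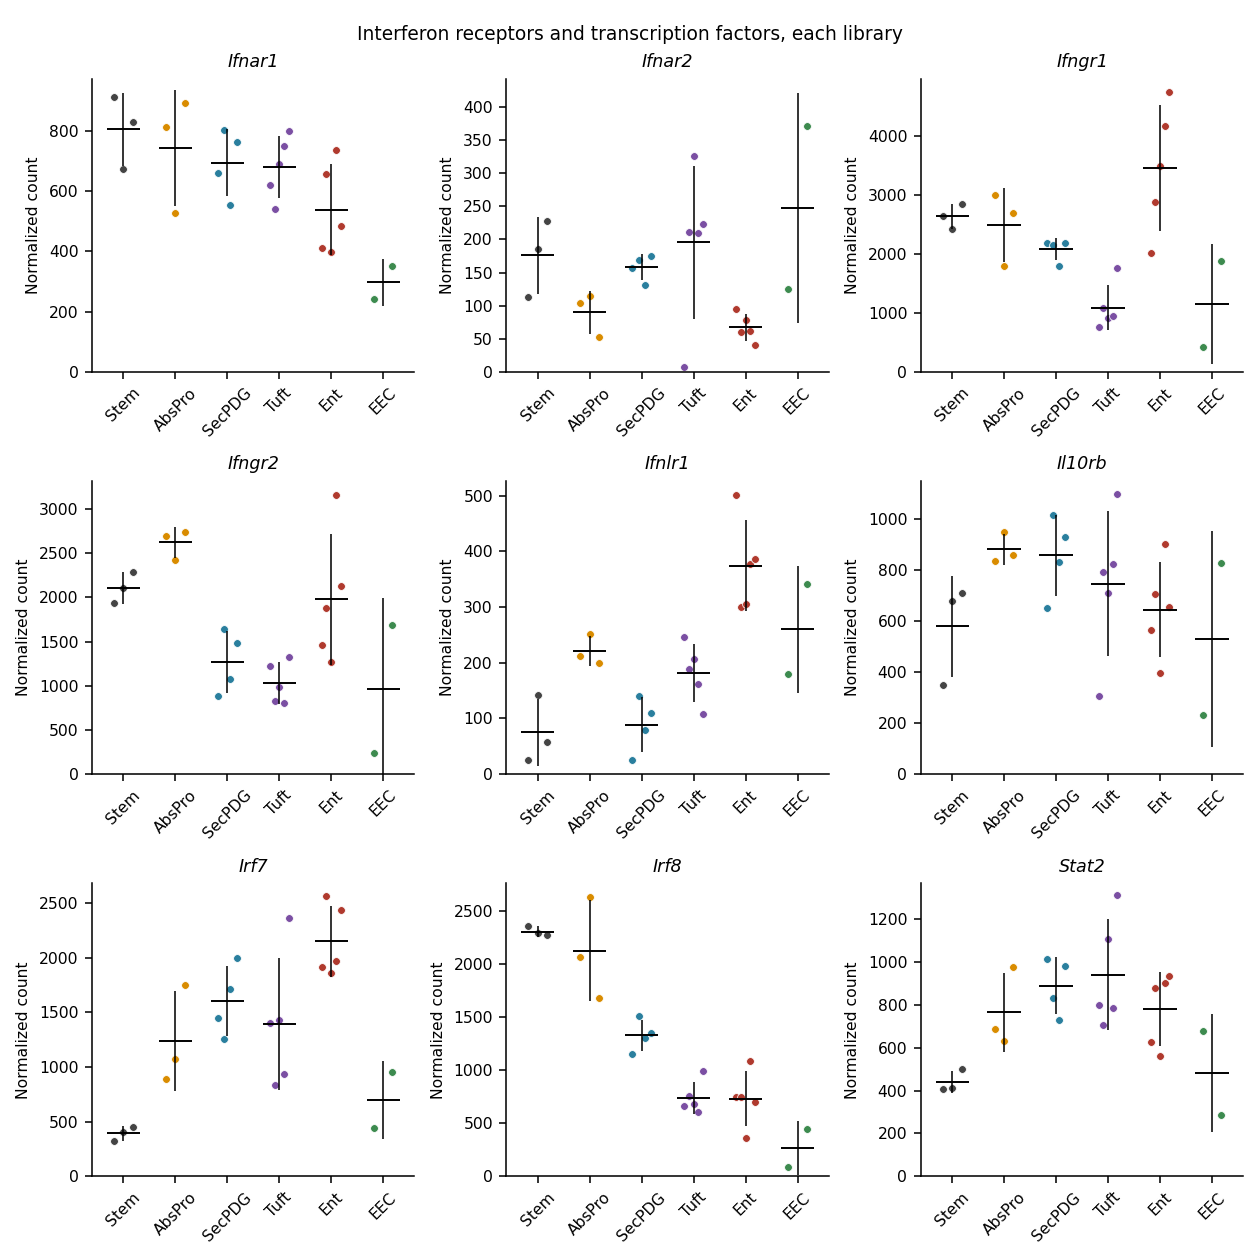
Normalized counts (linear axis from 0) of the 6 receptor chains and of Irf7, Irf8 and Stat2 in each library, with the group mean (horizontal line) and its SD (vertical line). Irf7 is lowest in Stem, Irf8 is highest in Stem and AbsPro, and Ifnlr1 is highest in Ent.

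Among the transcription factors, Irf7 and Irf8 differed most, in opposite directions. Irf7, the factor that drives the second wave of interferon production, was higher than Stem in 4 of the 5 other populations. Normalized counts were 319.8, 401 and 453 in Stem, 888, 1069.5 and 1752 in AbsPro, 1446, 1261, 1712 and 2002 in SecPDG, 1407, 837, 1433, 939.6 and 2367 in Tuft, 1917, 2569.8, 1865, 1976 and 2436 in Ent and 445 and 954 in EEC. No library outside Stem and EEC fell within the Stem range. Irf7 was higher 3.14-fold in AbsPro (log2 fold change 1.65 ± 0.37 SE, adjusted p = 0.00741), 4.10-fold in SecPDG (log2 fold change 2.04 ± 0.35 SE, adjusted p = 2.77e-05), 3.59-fold in Tuft (log2 fold change 1.84 ± 0.34 SE, adjusted p = 5.59e-05) and 5.49-fold in Ent (log2 fold change 2.46 ± 0.35 SE, adjusted p = 2.02e-07), but not called in EEC (log2 fold change 0.87 ± 0.43 SE, adjusted p = 0.0905). Between AbsPro and Ent the difference was 1.75-fold and was not called (log2 fold change 0.81 ± 0.32 SE, adjusted p = 0.0284). Of the Irf7 model 45 bases overlap Phrf1 on the other strand, which counting without strand cannot separate.

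Irf8, best known as a factor of myeloid and B cells that interferon gamma induces, followed the reverse course. Its normalized counts were 2362, 2289 and 2270.1 in Stem and 2065, 2630.1 and 1682 in AbsPro, then 1152, 1511, 1299.7 and 1350.5 in SecPDG. They fell to 662, 759.7, 684, 600.4 and 989 in Tuft, 749, 749, 363, 1089 and 703 in Ent, and 85.0 and 442 in EEC. The Tuft, Ent and EEC libraries all lay below all Stem, AbsPro and SecPDG libraries. Irf8 fell relative to Stem in Tuft (log2 fold change -1.63 ± 0.30 SE, adjusted p = 3.57e-05), Ent (log2 fold change -1.66 ± 0.30 SE, adjusted p = 1.56e-05) and EEC (log2 fold change -3.03 ± 0.47 SE, adjusted p = 7.02e-07), and in Ent relative to AbsPro (log2 fold change -1.54 ± 0.30 SE, adjusted p = 0.000125). It kept these 4 calls under each alternative setting and without each library in turn, but the size of the EEC difference rested on its 2 libraries, at a log2 fold change of -2.55 without EEC 1 and -4.76 without EEC 2. In SecPDG all 4 libraries were below Stem without a call (log2 fold change -0.80 ± 0.31 SE, adjusted p = 0.111). In Stem, where Irf8 was at a mean of 2307 ± 48.6 (SD, n = 3), a list of 18 immune markers summed to 625 to 880.5, most of it from the myeloid marker Cd14 at a mean of 549.

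Stat2 and Irf9 belong to the transcription factor complex below the type I and type III receptors. Stat2 ran at 407, 412 and 502 in Stem and 798, 708, 1109.7, 784 and 1313 in Tuft, without overlap, an increase of 2.15-fold (log2 fold change 1.11 ± 0.31 SE, adjusted p = 0.00575). Its libraries in AbsPro, SecPDG and Ent also all lay above Stem, at adjusted p-values of 0.382, 0.0344 and 0.0193, which are no calls. The Tuft call was lost in 6 of the 22 fits that each left out 1 library, each Stem library, SecPDG 2, Tuft 3 or Tuft 5, at adjusted p-values of 0.0117 to 0.0291. Irf9 was called in none of the comparisons, with means from 418 in EEC to 962 in AbsPro and log2 fold changes relative to Stem of -0.90 to 0.25. Irf3, the factor that starts interferon production, was called lower in Ent (log2 fold change -0.88 ± 0.29 SE, adjusted p = 0.0077), but this rested on the scaling, since with 3 other scalings its log2 fold change was -0.45 to -0.36 and was not called, and Irf3 shares 1065 bases with Bcl2l12 on the other strand. Irf1, Irf2 and Irf5 were called nowhere, and Irf5 was the least abundant of the 40 per kilobase, at 19.0.

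Of the nucleic acid sensors, Zbp1 rose most. Zbp1, which senses left-handed nucleic acid and can trigger cell death, held 81.8, 38.4 and 34.4 normalized counts in Stem. It held 288, 224 and 483 in AbsPro, 586, 735, 543 and 826 in SecPDG, 455, 336, 442, 293 and 832 in Tuft and 531, 711, 628, 524 and 1129.9 in Ent. EEC 1 held 306 and EEC 2 46.1, the only library outside Stem that fell among the Stem values. The increase over Stem was 6.50-fold in AbsPro (log2 fold change 2.70 ± 0.51 SE, adjusted p = 0.000989), 13.3-fold in SecPDG (log2 fold change 3.73 ± 0.47 SE, adjusted p = 2.54e-08), 9.52-fold in Tuft (log2 fold change 3.25 ± 0.47 SE, adjusted p = 4.06e-07) and 13.9-fold in Ent (log2 fold change 3.80 ± 0.47 SE, adjusted p = 6.08e-09).

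The RNA sensors of the RIG-I family differed less. Ddx58, which encodes RIG-I, had its highest levels in SecPDG and Tuft, with 977, 1241, 1047 and 1178 in SecPDG and 1710.0, 771, 720.4, 887 and 1548 in Tuft. Stem held 365, 531 and 583 and Ent 416, 545, 388, 660.4 and 601, and no Tuft library fell to the level of either. Ddx58 was called higher in Tuft than in Stem (log2 fold change 1.20 ± 0.31 SE, adjusted p = 0.00287) and than in Ent (log2 fold change 1.12 ± 0.27 SE, adjusted p = 0.00204), the only one of the 40 genes called higher in Tuft than in Ent. The first of these calls was lost without Stem 1 or Tuft 1, and the second without Tuft 1, Tuft 5 or Ent 3. Ifih1, which encodes MDA5, was called in Ent (log2 fold change 1.05 ± 0.31 SE, adjusted p = 0.00371), though not without any 1 of the 3 Stem libraries, at adjusted p-values of 0.0111 to 0.0247. Dhx58, the third member of the family, and Trim25, the ubiquitin ligase that activates RIG-I, were called nowhere.

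Isg15, a ubiquitin-like protein that is attached to other proteins during the response, was called higher only in Ent. Normalized counts of Isg15 were 36.7, 58.9 and 19.5 in Stem, 155, 99.2 and 246 in AbsPro, 35.9, 67.1, 143 and 118 in SecPDG, 199, 61.8, 87.2, 67.9 and 201 in Tuft, 111, 219, 293, 197 and 453 in Ent and 90.4 and 66.7 in EEC. Outside Stem, all libraries but 1 of SecPDG lay above the highest Stem library. The increase was 6.55-fold in Ent (log2 fold change 2.71 ± 0.53 SE, adjusted p = 4.52e-05), and in AbsPro (log2 fold change 2.08 ± 0.58 SE, adjusted p = 0.0546), Tuft (log2 fold change 1.72 ± 0.57 SE, adjusted p = 0.0191), SecPDG (log2 fold change 1.26 ± 0.62 SE, adjusted p = 0.271) and EEC (log2 fold change 0.98 ± 0.85 SE, adjusted p = 0.346) it was not called.

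Usp18, the protease that removes Isg15 and also damps the type I receptor, was the 1 gene of the 40 called higher than Stem in all 5 other populations. Its normalized counts were 37.5, 76.2 and 89.6 in Stem and 218, 346 and 319 in AbsPro, 198, 201, 313 and 308 in SecPDG and 168, 239, 312, 293 and 530.4 in Tuft. Ent held 231, 349.9, 352, 305 and 451, and EEC 421 and 495. Every library outside Stem lay above every Stem library. The SecPDG call was lost without Stem 1 (adjusted p of 0.0254), and the AbsPro call in 5 of the 22 fits without 1 library, each Stem library, AbsPro 2 or AbsPro 3, at adjusted p-values up to 0.0624. The increase ran from 3.73-fold in SecPDG (log2 fold change 1.90 ± 0.43 SE, adjusted p = 0.00164) over 4.25-fold in AbsPro (log2 fold change 2.09 ± 0.44 SE, adjusted p = 0.00392), 4.59-fold in Tuft (log2 fold change 2.20 ± 0.42 SE, adjusted p = 6.37e-05) and 4.91-fold in Ent (log2 fold change 2.30 ± 0.42 SE, adjusted p = 1.64e-05) to 6.70-fold in EEC (log2 fold change 2.74 ± 0.49 SE, adjusted p = 9.61e-06). Parp9, Parp14 and Dtx3l, which act together in ADP-ribosylation and ubiquitination during the response, were not called outside EEC. In EEC, Dtx3l held 430.3 and 671 against 1352, 1783 and 2009 in Stem (log2 fold change -1.61 ± 0.41 SE, adjusted p = 0.00107), and Parp9 held 123 and 291 against 794, 675 and 725 (log2 fold change -1.75 ± 0.49 SE, adjusted p = 0.0032). The Parp9 call was lost without EEC 1 (adjusted p of 0.0193), with DESeq2's size factors in edgeR and with EEC and Stem fitted alone, the last of which also ended the call of Dtx3l, and without EEC 2 the log2 fold change of Parp9 was -2.57. Parp9 and Dtx3l overlap head to head by 682 bases on chromosome 16, so that their counts are not fully separate.

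The antiviral effectors were the largest group among the genes called in Ent. Of 13, 7 were called higher there (Ifit1, Ifit2, Ifit3, Oas2, Oasl2, Mx2 and Rsad2), 3 in Tuft, 2 in SecPDG and none in AbsPro. Rsad2 encodes viperin, an enzyme that makes a chain-terminating nucleotide. Its normalized counts were 20.7, 25.6 and 30.3 in Stem, 70.6, 90.3 and 165 in AbsPro, 64.3, 58.4, 27.8 and 134 in SecPDG, 81.8, 106, 67.0, 87.4 and 149.7 in Tuft, 420.0, 515, 625, 350.1 and 497 in Ent and 137 and 263 in EEC. Each Ent library was above every library of the other populations. Rsad2 was higher than Stem 18.7-fold in Ent (log2 fold change 4.22 ± 0.48 SE, adjusted p = 1.06e-09), 8.07-fold in EEC (log2 fold change 3.01 ± 0.65 SE, adjusted p = 0.00018) and 3.93-fold in Tuft (log2 fold change 1.98 ± 0.59 SE, adjusted p = 0.00934), and higher in Ent than in AbsPro 4.56-fold (log2 fold change 2.19 ± 0.39 SE, adjusted p = 3.61e-05). The EEC call was lost without EEC 2 (log2 fold change of 2.41) and with EEC and Stem fitted alone. The Tuft call was lost in 11 of the 22 fits that each left out 1 library, and in 7 of the 13 other settings tried with all libraries.

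The Ifit genes, which bind viral RNA and stop its translation, lie in 1 cluster within chr19:34550694-34650009 (mm10) and did not share 1 pattern. Ifit2 held 50.5, 127 and 96.4 in Stem, 218, 271 and 479 in AbsPro and 296, 921, 761, 405 and 769.9 in Ent. In the secretory populations it held 88.9, 49.7, 56.4 and 120.5 in SecPDG and 129, 79.5, 49.3, 59.8 and 86.2 in Tuft, within or near the Stem range. Ifit2 was called in Ent (log2 fold change 2.77 ± 0.41 SE, adjusted p = 4.08e-07) and not in SecPDG (log2 fold change -0.22 ± 0.53 SE, adjusted p = 0.904) or Tuft (log2 fold change -0.20 ± 0.51 SE, adjusted p = 0.774), and it was lower in Tuft than in Ent 7.80-fold (log2 fold change -2.96 ± 0.38 SE, adjusted p = 1.22e-08). Ifit1 held 32.9, 90.3 and 64.0 in Stem and 420.0, 857, 749, 708 and 985 in Ent, an increase of 11.7-fold (log2 fold change 3.55 ± 0.50 SE, adjusted p = 1.85e-07). It was also called in SecPDG, at 4.47-fold, and Tuft, at 3.71-fold, where libraries overlapped those of Stem. Without SecPDG 1 the SecPDG call was lost (adjusted p of 0.136), as it was without Stem 1 or Stem 3, and the Tuft call was lost in 7 of the 22 fits without 1 library. Of the 13 other settings tried with all libraries, 3 lost the SecPDG call and 5 the Tuft call. Ifit3 held 0.765, 23.7 and 9.43 in Stem, 48.0, 69.1 and 153 in AbsPro and 236, 324, 374, 230.4 and 267 in Ent. Its size against the low Stem counts is uncertain, with log2 fold changes in Ent of 4.09 without Stem 1 and 5.58 without Stem 2. Ifit3 was higher in Ent than in Stem 23.9-fold (log2 fold change 4.58 ± 0.67 SE, adjusted p = 2.98e-07) and than in AbsPro 3.32-fold (log2 fold change 1.73 ± 0.48 SE, adjusted p = 0.00328). Ifit3 was not counted in EEC 2, against 235 in EEC 1, and 31.7% of its 100-base words also occur in its near copy Ifit3b, so that reads of the pair are partly shared.

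Oas2, which makes the oligoadenylates that activate RNase L, had its highest mean in Tuft instead. Its normalized counts were 27.5, 64.0 and 12.8 in Stem, 179, 83.0 and 362 in AbsPro, 304, 220.1, 247 and 819.7 in SecPDG, 917, 418, 1046, 397 and 1394 in Tuft, 351, 629.8, 404, 535 and 678 in Ent and 90.4 and 131 in EEC. All libraries outside Stem lay above the highest Stem library, and the Tuft, SecPDG and Ent values overlapped each other. The increase over Stem was 23.7-fold in Tuft (log2 fold change 4.57 ± 0.54 SE, adjusted p = 2.06e-09), 14.6-fold in Ent (log2 fold change 3.87 ± 0.56 SE, adjusted p = 2.44e-07) and 11.2-fold in SecPDG (log2 fold change 3.49 ± 0.58 SE, adjusted p = 9.64e-06). These sizes rested in part on Stem 2, the highest Stem library, without which the log2 fold changes of Oas2 were 5.40 in Tuft, 4.56 in Ent and 4.39 in SecPDG, and they were 3.26 in Ent without Stem 3 and 2.86 in SecPDG without SecPDG 4. Oas1a and Oasl2, which lie on the same chromosome, differed less. Oas1a had its highest mean in AbsPro, at 1051 ± 163 (SD, n = 3) against 493 ± 18.4 in Stem, and was called nowhere, and 40.9% of its 100-base words also occur in Oas1g. Oasl2 was called in Ent (log2 fold change 1.22 ± 0.35 SE, adjusted p = 0.00318), but not without any 1 of the Stem libraries, at adjusted p-values of 0.018 to 0.0223.

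Mx2, an antiviral GTPase of the dynamin family, held 162, 226, 239, 130.0 and 210.5 in Ent against 13.8, 64.7 and 43.1 in Stem, without overlap (log2 fold change 2.21 ± 0.49 SE, adjusted p = 0.000266). Bst2 (tetherin, which holds budding virions at the surface), Isg20 (an exonuclease), Ifi35 and Xaf1 were called nowhere. Bst2 ran by group means from 17.6 in EEC to 262 in SecPDG, and its Stem libraries themselves spread, with an SD of 77.9 on a mean of 99.1. Ifi44, a GTP-binding protein of little-known function, had 1 count over both EEC libraries and 468 over the 3 Stem libraries. Its level in Stem was thus 148.1 times that of EEC, with an exact 95% counting interval of 26.45 to 5861, and EEC 1 on its own had 0 counts. The interval covers counting error only. Ifi44 was called lower in EEC, at an adjusted p of 0.00553, but not without either EEC library or Stem 3. That call was also lost in 6 of the 13 other settings tried with all libraries, among them all 3 other scalings.

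The guanylate-binding proteins, GTPases that attack the membranes of intracellular pathogens and answer mainly to interferon gamma, were all called higher in Ent. Gbp2 held 10.7, 33.9 and 24.3 normalized counts in Stem, 64.3, 45.5 and 186 in AbsPro, 12.3, 48.5, 64.9 and 155 in SecPDG, 42.7, 80.8, 68.2, 114 and 109 in Tuft, 300.0, 394, 292, 181 and 318 in Ent and 197 and 10.9 in EEC. Ent was above Stem 12.5-fold (log2 fold change 3.65 ± 0.59 SE, adjusted p = 2.23e-06) with no overlap, and above AbsPro 3.13-fold (log2 fold change 1.65 ± 0.47 SE, adjusted p = 0.00432) with 1 AbsPro library inside the Ent range. Gbp3 was called in Ent (log2 fold change 1.72 ± 0.42 SE, adjusted p = 0.000733) and in Tuft (log2 fold change 1.68 ± 0.42 SE, adjusted p = 0.0021), the former lost without Stem 2 or Stem 3 and the latter also without Tuft 5 (adjusted p of 0.0143). Gbp7 was called in Ent alone (log2 fold change 1.37 ± 0.39 SE, adjusted p = 0.00276), and not without Stem 1, Stem 2 or Ent 1. Gbp7, Gbp3 and Gbp2 lie in this order within chr3:142530342-142638008 (mm10).

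**Figure D3:**
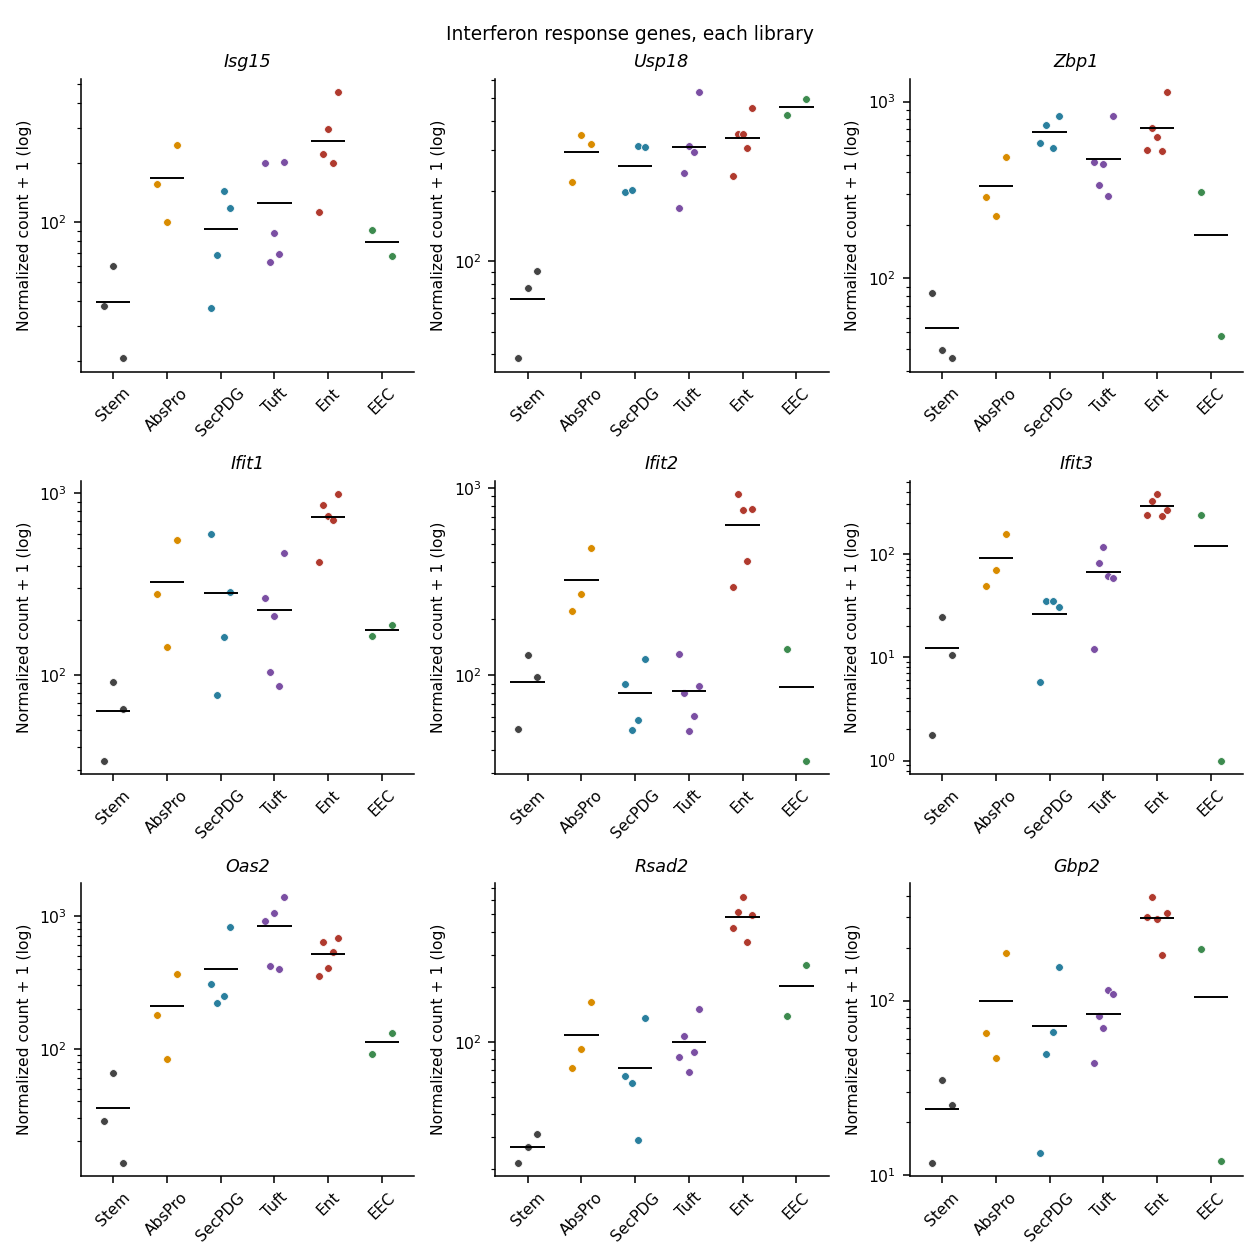
Normalized counts plus 1 (log axis) of 9 response genes in each library, with the mean of the group as a line. All Ent libraries lie above all Stem libraries in the 9 panels, the Ifit2 values of SecPDG and Tuft lie at the level of Stem, and Oas2 is highest in Tuft.

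The sequences before the start sites of these genes bear on how alike their control regions look. RefSeq promoter windows on GRCm38.p6 (mm10), each with 250 bases before and 50 after a gene's start, were at hand for 32 of the 40 genes. They were searched on both strands for the core of the interferon-stimulated response element, GAAANNGAAA, and for the gamma-activated site, TTCNNNGAA. The core of the response element occurred in 13 of the 32 genes (40.6%), beside 3.99% of 27025 genes in the table. The gamma-activated site occurred in 11 of the 32 (34.4%), beside 9.55%. Of the genes with a window, 8 of 12 called higher in Ent than in Stem held the response element core, 0 of 2 called lower, and 5 of 18 not called. The 40 genes were chosen by name for their part in the interferon response, so a share like that of all genes was not to be awaited. The split by call also mixes roles, since those not called include Ifnar1, Ifnar2, Ifngr1 and Ifngr2. Zbp1, Usp18, Oas2 and Mx2, called higher in Ent, had no window. Whether the core bears on the calls was not tested.

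The stretches with a match in genes that rose in Ent are printed 5′ to 3′ on the strand of the gene, with each match in capitals. A match reads GAAANNGAAA where it lies on the strand of the gene, and its reverse complement where it lies on the other. They are Isg15, at chr4:156200860-156200911 on the minus strand, Ifit1 at chr19:34640770-34640828 and Ifit3 at chr19:34583358-34583431 on the plus strand, Rsad2 at chr12:26456548-26456587 on the minus strand, and Gbp2 at chr3:142620589-142620628, Gbp3 at chr3:142559984-142560029 and Gbp7 at chr3:142530268-142530307 on the plus strand.
Isg15: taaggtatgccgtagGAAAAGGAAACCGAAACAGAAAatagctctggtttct
Ifit1: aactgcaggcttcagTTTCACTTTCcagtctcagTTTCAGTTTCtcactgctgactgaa
Ifit3: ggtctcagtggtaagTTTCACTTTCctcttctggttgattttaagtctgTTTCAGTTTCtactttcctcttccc
Rsad2: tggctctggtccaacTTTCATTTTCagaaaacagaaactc
Gbp2: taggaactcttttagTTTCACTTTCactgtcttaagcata
Gbp3: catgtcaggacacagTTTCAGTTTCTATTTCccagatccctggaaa
Gbp7: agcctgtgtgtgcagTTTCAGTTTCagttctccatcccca
Isg15 holds 3 matches, each overlapping the next, between positions -78 and -57 from the start. Ifit1 and Ifit3 hold 2 separate matches each, Gbp3 holds 2 that overlap, and Rsad2, Gbp2 and Gbp7 hold 1. Positions are counted from the RefSeq start, and of 39 windows of these genes only 28 have the first bases after that start in a GENCODE transcript of the gene. In Ifih1 and Ddx58 the match lies after the RefSeq start, and in Gbp2 it lies before the RefSeq start but after that of the GENCODE model, at 142620602. A match describes the letters of a window and does not show that a factor binds there.

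Genes that were not called higher in Ent can hold the same letters. Oas1a, at chr5:120907526-120907560 on the minus strand, and Bst2, at chr8:71537572-71537617 on the minus strand, each hold 2 overlapping matches, and the Stat2 match lies at chr10:128270261-128270300 on the plus strand.
Oas1a: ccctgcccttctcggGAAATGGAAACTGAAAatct
Bst2: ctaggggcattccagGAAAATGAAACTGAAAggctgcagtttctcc
Stat2: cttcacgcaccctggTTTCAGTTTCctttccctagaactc
Irf8, which fell in Tuft, Ent and EEC, held no response element core in its window. It held 2 gamma-activated sites, at chr8:120736172-120736228 on the plus strand, and Irf1 held 1, at chr11:53769909-53769947 on the plus strand.
Irf8: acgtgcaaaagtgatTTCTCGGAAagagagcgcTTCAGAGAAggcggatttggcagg
Irf1: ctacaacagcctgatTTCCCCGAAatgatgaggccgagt
No window was at hand for Il10rb, Dhx58, Zbp1, Usp18, Parp9, Parp14, Oas2 or Mx2, so that nothing can be shown for Zbp1, Usp18 and Oas2.

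The step from AbsPro to Ent, within the absorptive lineage, held calls in a few effectors, at a share no larger than among genes in general. Of the 13188 genes that could be called, 1870 were called higher in Ent than in AbsPro and 1817 lower. Of the 40 genes 5 were called higher in Ent than in AbsPro (Ifit3, Oas2, Mx2, Rsad2 and Gbp2), beside 8.21% of all genes, and 1 lower (Irf8), beside 7.98%. Of these Mx2 (log2 fold change 1.72 ± 0.48 SE, adjusted p = 0.00353), Ifit3, Rsad2 and Irf8 had no overlap between libraries, and Gbp2 and Oas2 had some. The call of Oas2 (log2 fold change 1.35 ± 0.43 SE, adjusted p = 0.00867) was lost in 11 of the 22 fits without 1 library, and those of Ifit3, Mx2 and Gbp2 without AbsPro 1, AbsPro 2 or either of 2 Ent libraries. The number called rests on the scaling. With DESeq2's size factors 17 genes were called higher and 1 lower, and with library totals or upper quartile factors 15 and 1. These scalings move the median of all genes with a mean of at least 50 by 0.59 to 0.65 on the log2 scale. The median over the 40 genes was 0.09, and over all genes with a mean of at least 50 it was -0.38.

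Between Tuft and SecPDG none of the 40 genes was called, beside 3.01% of all genes called higher and 0.347% lower. DESeq2's Wald test called 1 gene, lower in Tuft, and at an adjusted p under 0.05 edgeR called 2 higher and 2 lower. At an unadjusted p under 0.05 there were 3 higher and 2 lower, with no share of all genes at that threshold at hand. Among the receptors Ifngr1 had the higher mean in SecPDG (log2 fold change -0.92 ± 0.31 SE, adjusted p = 0.0408), with all Tuft libraries below all SecPDG libraries, while for Ifnlr1 the log2 difference was of the other sign (log2 fold change 1.06 ± 0.44 SE, adjusted p = 0.0906). Neither passed the test. Between Tuft and Ent 1 gene was called higher in Tuft (Ddx58), beside 5.79% of all genes, and 6 lower (Ifngr1, Ifit1, Ifit2, Ifit3, Rsad2 and Gbp2), beside 2.65%. The differences of Rsad2 (log2 fold change -2.25 ± 0.35 SE, adjusted p = 1.27e-06), Ifit3 (log2 fold change -2.16 ± 0.45 SE, adjusted p = 0.000306) and Gbp2 (log2 fold change -1.80 ± 0.43 SE, adjusted p = 0.00172) were found without overlap of libraries. The call of Ifit1 was lost without Tuft 4 (adjusted p of 0.0117). With the 3 other scalings 14 genes were called lower in Tuft than in Ent, and with plain library totals 0 were called higher. These scalings moved the median log2 fold change of all genes with a mean of at least 50 there by -0.46 to -0.38.

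**Figure D4:**
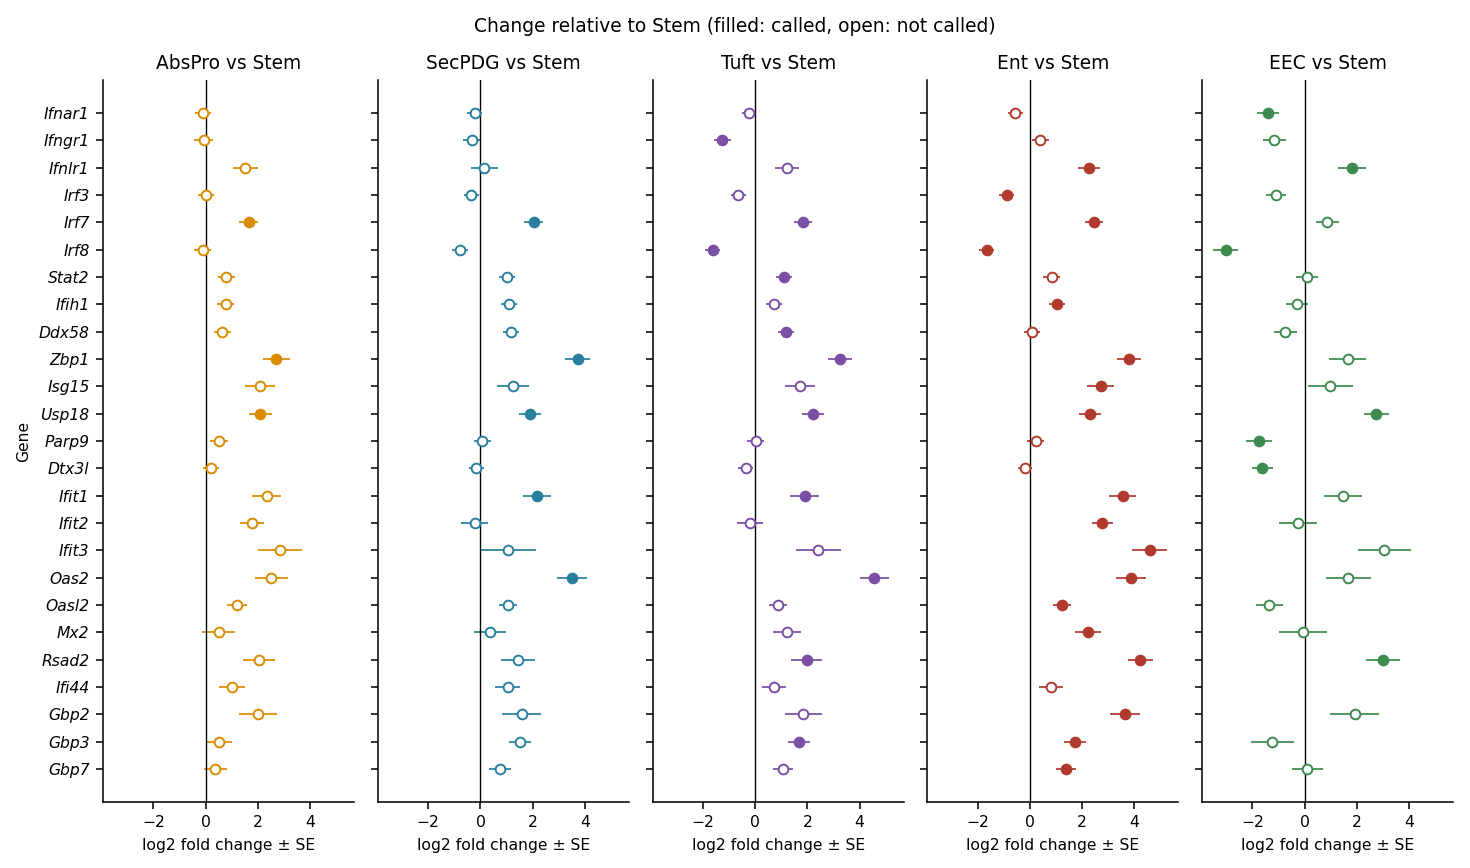
Log2 fold change relative to Stem (horizontal axis) with its SE (bar), for the 25 genes called in at least 1 comparison, in each of the 5 other populations. Filled points were called and open points were not, Ifi44 in EEC is left out because 1 count was seen there, and Usp18 is filled in all 5 panels.

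EEC was the only population with more genes called lower than higher, and its 2 libraries often disagreed. Zbp1, Ifit3, Gbp2 and Gbp7 were higher in EEC 1, at 306, 235, 197 and 331, than in EEC 2, at 46.1, 0, 10.9 and 27.9. Irf7, Irf8, Ifngr1 and Ifngr2 were higher in EEC 2. With DESeq2's size factors in edgeR, 8 genes were called higher and 2 lower in EEC in place of 3 and 5. The direction of the EEC differences as a group thus rests on the scaling, which moved the median of all genes with a mean of at least 50 by 0.78. Fitted against Stem alone, with 5 libraries, 2 genes were called. Background reads were estimated at 45.5% of the Mx2 mean in EEC, 32.3% of that of Gbp3, 27.5% of Irf5, 26.1% of Ifit2 and 23.1% of Bst2. For Ifi44, with its 1 count, the estimate came to 4242% of the EEC mean, more reads than were counted, so that it is rough for a single gene.

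Libraries of 1 population differed from each other in these genes together. Of the 40 genes, Tuft 5 held the highest Tuft value in 30 (75.0%), against 46.6% of all genes with a mean of at least 50. AbsPro 3 was the highest AbsPro library in 29 (72.5%, against 44.8%), Stem 3 the highest Stem library in 24 (60.0%, against 43.9%), and SecPDG 4 the highest SecPDG library in 21 (52.5%, against 28.6%). Among Ent libraries Ent 5 was highest in 14 (35.0%, against 18.3%). Without AbsPro 3 none of the 40 was called in AbsPro: Zbp1, Usp18 and Irf7 had log2 fold changes of 2.41, 2.11 and 1.40 with adjusted p-values of 0.0147, 0.011 and 0.052. Leaving out Stem 2 or Stem 3 also left no call in AbsPro, and without Stem 1 only Zbp1 was called. Without Tuft 5, Irf7, Zbp1, Usp18, Oas2, Ddx58, Irf8 and Ifngr1 kept their calls in Tuft, and Stat2, Ifit1, Rsad2 and Gbp3 did not. Tuft 5 was the Tuft library with the fewest background reads.

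Ent, Tuft and EEC, the populations with the most background reads, also had the highest mean sums of immune markers. A list of 18 immune markers summed to 625 to 880.5 normalized counts in Stem, where AbsPro libraries held 588 to 794 and SecPDG 453 to 625. Tuft libraries held 1863 to 3834, Ent 1053 to 1894, and EEC 757 and 4106. All 18 were detected in SecPDG, Tuft and Ent, while Gzma was at 0 in every Stem and every AbsPro library, Nkg7 in every Stem library and Cd79a in both EEC libraries. Cd14 made up most of the sum in Stem, at a mean of 549, and Ptprc, which encodes Cd45, most of it in Tuft, at a mean of 1671 against 115 in Ent and 18.0 in Stem. Whether the Ptprc reads in Tuft came from the tuft cells themselves or from immune cells was not tested. Of the 18 immune markers only 5 averaged 50 normalized counts or more and could be called. Of those 5, 3 were called higher and 1 lower than Stem in each of Tuft, Ent and EEC. The median log2 fold change of the 18 was 3.58 in Tuft, 3.87 in Ent and 4.29 in EEC. Over all genes tested these medians were 0.83, 1.17 and 0.68. Sums of 8 stromal markers were 95.0 to 255.5 in Stem, 737 to 1522 in Ent, 213 to 777 in Tuft, 2268 to 3384 in EEC, 50.1 to 222 in SecPDG and 187 to 1493 in AbsPro. Of these 8 only 5 could be called, and 4 were called higher than Stem in Ent and in EEC and 1 in Tuft and in AbsPro. Sums of 4 endothelial markers were 74.3 to 164 in Stem, 464 to 1158 in Ent, 231 to 715 in Tuft, 1303 to 1858 in EEC, 92.6 to 298 in SecPDG and 37.4 to 165 in AbsPro, and all 4 were called higher than Stem in Tuft, Ent and EEC. The part of such cells in the differences of the interferon genes was not tested. Background reads were estimated at 0.802% to 8.51% of the Ent mean for the 16 genes called higher there and at 0.559% to 9.23% of the Tuft mean for the 9 called higher in Tuft. With the estimated background taken off, 18 genes were called higher and 2 lower in Ent, and 7 and 2 in Tuft.

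Other genes of the pathway, 77 in all, were counted by role as well. Of 10 interferon genes (Ifna1, Ifna2, Ifna4, Ifna5, Ifnb1, Ifne, Ifnk, Ifng, Ifnl2 and Ifnl3) none reached a mean of 50 normalized counts, so that none could be called, and the highest value in any library was 125, of Ifnk in EEC 2. Of 17 other signaling genes 16 could be called. None was called in AbsPro or SecPDG, where 0.496% and 3.38% of all genes were called higher and 0.0922% and 1.6% lower. In Tuft 1 was called, Tlr3, a sensor of double-stranded RNA in endosomes (log2 fold change 1.37 ± 0.33 SE, adjusted p = 0.00179). In Ent, Nlrc5, the activator of class I antigen presentation genes, was higher (log2 fold change 1.41 ± 0.42 SE, adjusted p = 0.00397) and Mb21d1, which encodes the DNA sensor cGAS, was lower (log2 fold change -1.91 ± 0.43 SE, adjusted p = 0.000295). Among those called in EEC was Socs1, an inhibitor of the receptor kinases, which was higher (log2 fold change 2.97 ± 0.82 SE, adjusted p = 0.00244).

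Of 50 other response genes 46 averaged 50 normalized counts or more and could be called. In AbsPro 3 were called higher and 0 lower, beside 0.496% and 0.0922% of all genes. In SecPDG 4 and 1 were called, beside 3.38% and 1.6%, and in Tuft 8 and 2, beside 7.83% and 4.23%. In Ent the counts were 20 and 3, beside 10.7% and 11.5%, and in EEC 8 and 7, beside 10.8% and 9.14%. Among the 13188 genes that could be called, 2459 were called higher and 2082 lower in EEC. Ddx60, a helicase that aids RIG-I, was higher in AbsPro (log2 fold change 2.5 ± 0.41 SE, adjusted p = 0.000124) and SecPDG (log2 fold change 2.67 ± 0.40 SE, adjusted p = 1.04e-06). Oas3, a relative of Oas2, was also higher in both (log2 fold change 2.31 ± 0.47 SE, adjusted p = 0.00249, and log2 fold change 2.60 ± 0.45 SE, adjusted p = 2.29e-05). In Tuft the largest increases were those of Mx1, the nuclear relative of Mx2 (log2 fold change 3.94 ± 0.70 SE, adjusted p = 2.56e-05), and of Slfn5 (log2 fold change 3.43 ± 0.69 SE, adjusted p = 0.000181), which was also the 1 gene of the 50 called higher in Tuft than in SecPDG (log2 fold change 2.39 ± 0.59 SE, adjusted p = 0.00593).

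In Ent the largest increase with counts in every library was that of Ifit1bl1, which lies in the Ifit cluster. Its normalized counts were 39.0 to 96.4 in Stem, 158 to 516 in AbsPro and 1877 to 3223 in Ent (log2 fold change 5.36 ± 0.43 SE, adjusted p = 2.1e-14). In SecPDG and Tuft it stayed between 22.7 and 98.4, so that Ent was above every library of these populations, and Tuft was lower than Ent (log2 fold change -5.19 ± 0.36 SE, adjusted p = 1.8e-17). Ifit3b, the near copy of Ifit3, was at 0 to 5.39 in Stem against 67.3 to 202 in Ent (adjusted p = 3.97e-06), and at 43.7 and 295 in EEC (adjusted p = 3.06e-05). Gbp8 was also called higher in EEC, at 259 and 738 against 0 to 33.7 in Stem (adjusted p = 1.37e-08), while Oas1g was called lower there, at 0 and 2.43 against 131 to 235 (adjusted p = 0.000468). With so few counts in 1 group no fold is given for Ifit3b, Gbp8 and Oas1g.

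Of the 3 Ifitm genes on the list, whose products block the entry of viruses at membranes, Ifitm3 and Ifitm2 were called lower in several populations, while Ifitm1, at a mean of 10.2 normalized counts, was too low to be called. Ifitm3 was lower than Stem in SecPDG (log2 fold change -1.91 ± 0.35 SE, adjusted p = 6.28e-05), Tuft (log2 fold change -2.30 ± 0.34 SE, adjusted p = 4.76e-07), Ent (log2 fold change -4.03 ± 0.40 SE, adjusted p = 2.44e-11) and EEC (log2 fold change -4.59 ± 0.64 SE, adjusted p = 7.93e-08). Ifitm2 was lower in Tuft (log2 fold change -1.29 ± 0.30 SE, adjusted p = 0.00109), Ent (log2 fold change -2.39 ± 0.32 SE, adjusted p = 4.76e-08) and EEC (log2 fold change -2.48 ± 0.46 SE, adjusted p = 1.94e-05). In AbsPro neither was called, at adjusted p-values of 0.0231 for Ifitm3 and 0.677 for Ifitm2. From AbsPro to Ent 13 of the 50 were called higher, beside 8.21% of all genes, and 6 lower, beside 7.98%. The largest increases were those of Slfn2 (log2 fold change 3.16 ± 0.53 SE, adjusted p = 1.1e-05) and Gbp5, at 0 to 12.2 in AbsPro and 37.6 to 174 in Ent. The largest decreases were those of Ifitm3 (log2 fold change -2.58 ± 0.43 SE, adjusted p = 1.63e-05) and Ifitm2 (log2 fold change -1.82 ± 0.33 SE, adjusted p = 4.22e-05). Between Tuft and Ent 2 were higher in Tuft, Ifitm3 (log2 fold change 1.73 ± 0.43 SE, adjusted p = 0.00308) and Ifitm2 (log2 fold change 1.11 ± 0.31 SE, adjusted p = 0.00835), and 5 lower. Beside them, 5.79% of all genes were called higher and 2.65% lower.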

How the data were processed

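RNA-seq of 22 libraries was analysed. The authors removed adapters, aligned reads to mm10 with STAR 2.5.2a and counted them per gene with HTSeq 0.6.1p1 without strand, and the deposited values are these raw counts. Lines of the count tables that name no gene, 53.9% to 91.6% of a library's total, stayed out. The other deposited tables, on splicing and polyadenylation, hold the authors' own comparisons or name no library and were not used. Counts were fitted over all 22 libraries with edgeR 4.0.16 (R 4.3.3, TMM scaling, filterByExpr, quasi-likelihood F test, Benjamini-Hochberg adjustment over 22781 genes), and a gene was called at an adjusted p under 0.01 if it also averaged 50 normalized counts or more. All p-values in the report are from this fit unless another setting is named. Counting depth, from 4122122 counts in EEC 1 to 22462518 in Stem 2, limits the precision of low genes. Full statistics go to the receptors, Irf7, Irf9, Stat2, Isg15 and the 4 largest called changes per direction and comparison without overlap of libraries, and, from the other lists, to the 2 largest per direction. Some genes of the other lists are not reported here by name. Further members were given statistics after their values were seen. The members and lists were chosen with earlier results of these data known. DESeq2 1.42.0, other scalings and filters, thinned counts, a replicate block and each library left out in turn were tried as alternatives. Background was estimated from reads on 1507 genes of other tissues, in counts per library total (CPM). The script was tested on simulated data. Gene models were those of GENCODE M21.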

Additional observations from a re-analysis of the deposited data

Results flagged for a closer look

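In 5 of 120 groups of 4 or 5 libraries (40 genes in 3 populations) 1 library lay far from the rest of its group, and chance flags about 1 in 20 groups. In SecPDG, Ifngr1 was at 1803 normalized counts in SecPDG 3, where the other libraries held 2161 to 2187. Ifit3 was at 4.73 in SecPDG 1 against 29.4 to 33.7. Oas2 was at 819.7 in SecPDG 4 against 220.1 to 304. In Tuft 5, Bst2 was at 343 against 105 to 158 in the other Tuft libraries, and Gbp3 was at 700.2 against 235 to 334.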

How the results depend on the processing

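Of 58 calls among the 40 genes over 8 comparisons, none reversed, 30 were kept under all 13 other settings with all libraries, 31 in all 22 fits without 1 library, and 24 in both. The call total of Ent against Stem (18) stayed within 1.5 times under every setting. In AbsPro against Stem, 3 became 5 with DESeq2, 6 at an adjusted p under 0.05, 6 with the 2 populations fitted alone and 5 with a replicate block. In SecPDG against Stem, 5 became 8 with library totals or upper quartile factors, 10 at an adjusted p under 0.05, 11 fitted alone and 9 with background taken off. In Tuft against Stem, 11 became 20 at an adjusted p under 0.05, 7 with counts thinned to the smallest library and 6 with the trended dispersion, a setting chosen after seeing the data. In EEC against Stem, 8 became 14 with DESeq2, 17 at an adjusted p under 0.05 and 2 fitted alone. In Ent against AbsPro, 6 became 16 with DESeq2, library totals or upper quartile factors, 18 with DESeq2's size factors in edgeR, 14 at an adjusted p under 0.05 or fitted alone, 3 thinned and 2 with the trended dispersion. In Tuft against SecPDG, 0 became 1 with DESeq2, 4 at an adjusted p under 0.05, 2 fitted alone and 1 with a replicate block. In Tuft against Ent, 7 became 15 with DESeq2, its size factors or upper quartile factors, 14 with library totals, 11 at an adjusted p under 0.05 and 4 with the trended dispersion. The other scalings moved the median log2 fold change of all genes with a mean of at least 50 in Ent against Stem from -0.30 to between 0.24 and 0.35. For the other settings the cause was not tested. Without 1 library the totals ran from 0 (without Stem 2, Stem 3 or AbsPro 3) to 6 in AbsPro, 3 (without Stem 1) to 9 in SecPDG, 6 (without Stem 1) to 14 in Tuft, 14 (without Stem 2) to 21 in Ent, 6 (without EEC 1) to 13 (without EEC 2) in EEC, 2 (without AbsPro 2) to 12 (without EEC 2) in Ent against AbsPro, 0 to 2 (without EEC 1) in Tuft against SecPDG and 6 to 10 in Tuft against Ent. Replicate numbers gave no sign of pairing over all populations together. Deviations of 44 same-numbered pairs had a median correlation of 0.00138 (-0.393 to 0.488), and those of 154 other pairs 0.0198 (-0.571 to 0.61). The check pools all populations, so it cannot exclude pairing between single populations. With the replicate block 54 of the 58 calls were kept. Depth limits genes at low counts, most in EEC 1, the shallowest library.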
